A study of Mus musculus with 21 samples.

Results

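Zfp1 to Zfp499 are mouse zinc finger genes that carry systematic Zfp symbols. Members were all genes whose symbol is Zfp followed by a number, up to Zfp499, without Zfp42 and Zfp352. At least 1 of 3 tables held 149 members, out of 13266 gene symbols, and all 3 tables held 144. The RACK1, RPLP0 and RPLP1 tables held 148 of 12905, 144 of 12353 and 146 of 12274 genes. Zfp9, Zfp202, Zfp273, Zfp300 and Zfp455 were analysed in fewer than 3 tables.

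The cells were E14 mouse embryonic stem cells in 3 engineered lines, labelled RACK1-AID/RPS26-Tir1, RPLP0-AID/RPS26-Tir1 and RPLP1-AID/RPS26-Tir1. AID is a degron that the plant receptor Tir1 recognises in the presence of auxin (IAA), so that the tagged protein is degraded. Each line was given IAA for 8 h, against the solvent DMSO, and every group, DMSO included, carries a tagged protein and Tir1. No line without a degron was analysed here, so effects of IAA itself cannot be told apart from removal of the protein. In a line, mRNA was read in 3 samples treated with IAA and in 3 treated with DMSO, while 1 ribosome footprint sample joins the replicates of both treatments. No source used here says whether replicates were separate cultures or whether a line is 1 clone. All 10 embryonic stem cell markers on the list were in every table, as were 4 of 8 fibroblast markers, and 5, 3 and 5 of 8 markers of differentiated germ layers were in the RACK1, RPLP0 and RPLP1 tables. In mRNA 3 stem cell markers passed the test in RPLP1 cells and 1 in RPLP0 cells, and 1 fibroblast marker passed in RPLP0 cells. Of all genes 5.64% rose and 8.59% fell in mRNA in RPLP1 cells, and 5.05% and 4.90% in RPLP0 cells. The largest absolute change among the 10 stem cell markers was 0.43 in RPLP1 and 0.14 in RPLP0 cells. Among the 4 fibroblast markers it was 1.43 in RPLP0 cells. The markers with the largest change need not be those that passed, and directions are not given here. Their part in the members' results was not tested. The values are the authors' own comparisons, as log2 changes with a false discovery rate (FDR), and the depth behind each is unknown. The headers name no numerator, and a positive change was read as higher after removal.

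Zinc finger proteins of the classical type bind DNA through tandem fingers, each folded round a zinc ion. Many mouse members also carry a KRAB domain, which recruits the corepressor Trim28 and through it the histone methyltransferase Setdb1 and heterochromatin proteins, and in embryonic stem cells this pathway silences retroelements and protects imprinted loci. The family also holds activators, RNA-binding proteins and subunits of other complexes. Many of these genes lie in clusters of related genes. RACK1 is a scaffold on the small ribosomal subunit, and RPLP0 is the base of the stalk of the large subunit, on which RPLP1 sits with RPLP2 and recruits elongation factors.

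A sequence shared by the promoters of several members is shown first, because a larger share of their promoter windows held it. ACTACAA is part of a longer site bound by Zfp143, itself a member and an activator of many promoters. RefSeq promoter windows on GRCm38.p6 ran from 250 bases before to 50 after each start. Only ACTACAA, called the core below, was searched there, on both strands. Of 151 windows of 122 members, 16 (10.6%) held it, against 3.92% of the windows of all genes in the tables and 3.60% of all windows. The lines below give 30 bases around the core for each member with the core wholly before the start and within 100 bases of it. They also give Zfp111 and Zfp229, whose core lies further before the start and which were picked because their mRNA rose in RPLP1 cells. Zfp219, whose core spans the start and whose mRNA fell there, is not printed. Nor are Zfp72, Zfp277 and Zfp454, which also hold the core. The core is in capitals, and it reads TTGTAGT where it lies on the other strand. Every sequence runs in the direction of transcription of its own gene.
Zfp1 (chr8:111643410-111643439, + strand): gcattatgggaaTTGTAGTcctacacctca
Zfp58 (chr13:67500531-67500560, - strand): gacttgtgggaaTTGTAGTctggccactgt
Zfp93 (chr7:24270339-24270368, + strand): gaattctgggaaTTGTAGTtccaacgccag
Zfp108 (chr7:24254719-24254748, + strand): gcattctgggaaTTGTAGTtctggagccat
Zfp128 (chr7:12881148-12881177, + strand): gcgcgtggccttctgggaaTTGTAGTctca
Zfp169 (chr13:48513491-48513520, - strand): gcattctgggtaTTGTAGTtcccccatctc
Zfp180 (chr7:24081867-24081896, + strand): gagttctgggaaTTGTAGTtccattgagct
Zfp358 (chr8:3493101-3493130, + strand): gggctcgagcgaACTACAAgtcccagcagc
Zfp111 (chr7:24208370-24208399, - strand): acttACTACAAttgtctttcatgccatttt
Zfp229 (chr17:21733501-21733530, + strand): tctagaactgttTTGTAGTctgcctctaat
In Zfp93, Zfp108, Zfp128 and Zfp180 the letters ttctgggaa stand directly before the core. Those letters do not stand beside the core in Zfp111 or Zfp229. Of the 10 sequences, 5 come from chromosome 7. A match is a description of the letters and says nothing about binding.

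Across the 3 lines the members did not move alike. After RPLP1 removal most of them were higher in both mRNA and footprints. After RACK1 removal most were higher in footprints but not in mRNA, and after RPLP0 removal they stayed near the centre, with footprints slightly below mRNA. In RPLP1 cells the median member was 0.14 higher in mRNA on the log2 scale, against -0.01 for all genes, and 111 of 146 members (76.0%) were above 0, against 49.0% of all genes. Their footprints had a median of 0.11, against -0.01, and 117 members (80.1%) were above 0, against 48.5%. In RACK1 cells the median was -0.06 in mRNA and 0.09 in footprints, against 0.00 and -0.01 for all genes, and 111 of 148 members (75%) had a footprint change above 0, against 45.1%. In RPLP0 cells the median was 0.03 in mRNA and -0.04 in footprints, against 0.00 for all genes in both assays. The mRNA median was -0.01 among members whose error was at or below the table's median. Footprints minus mRNA had a median of -0.10 among all members, and of -0.015 among the 32 members with both errors at or below it. Those sets include members with changes near 0 whose error was set at the table's median. The standard error of a single member, implied by its change and FDR, had a median of 0.216 for mRNA and 0.113 for footprints in RACK1 cells, 0.133 and 0.145 in RPLP0 cells, and 0.141 and 0.110 in RPLP1 cells. Genes numbered Zfp500 to Zfp899 and Zfp900 to Zfp999 had medians of the same sign. In RPLP1 cells their mRNA medians were 0.11 and 0.28, and in RACK1 cells their footprint medians were 0.08 and 0.18.

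**Figure D1:**
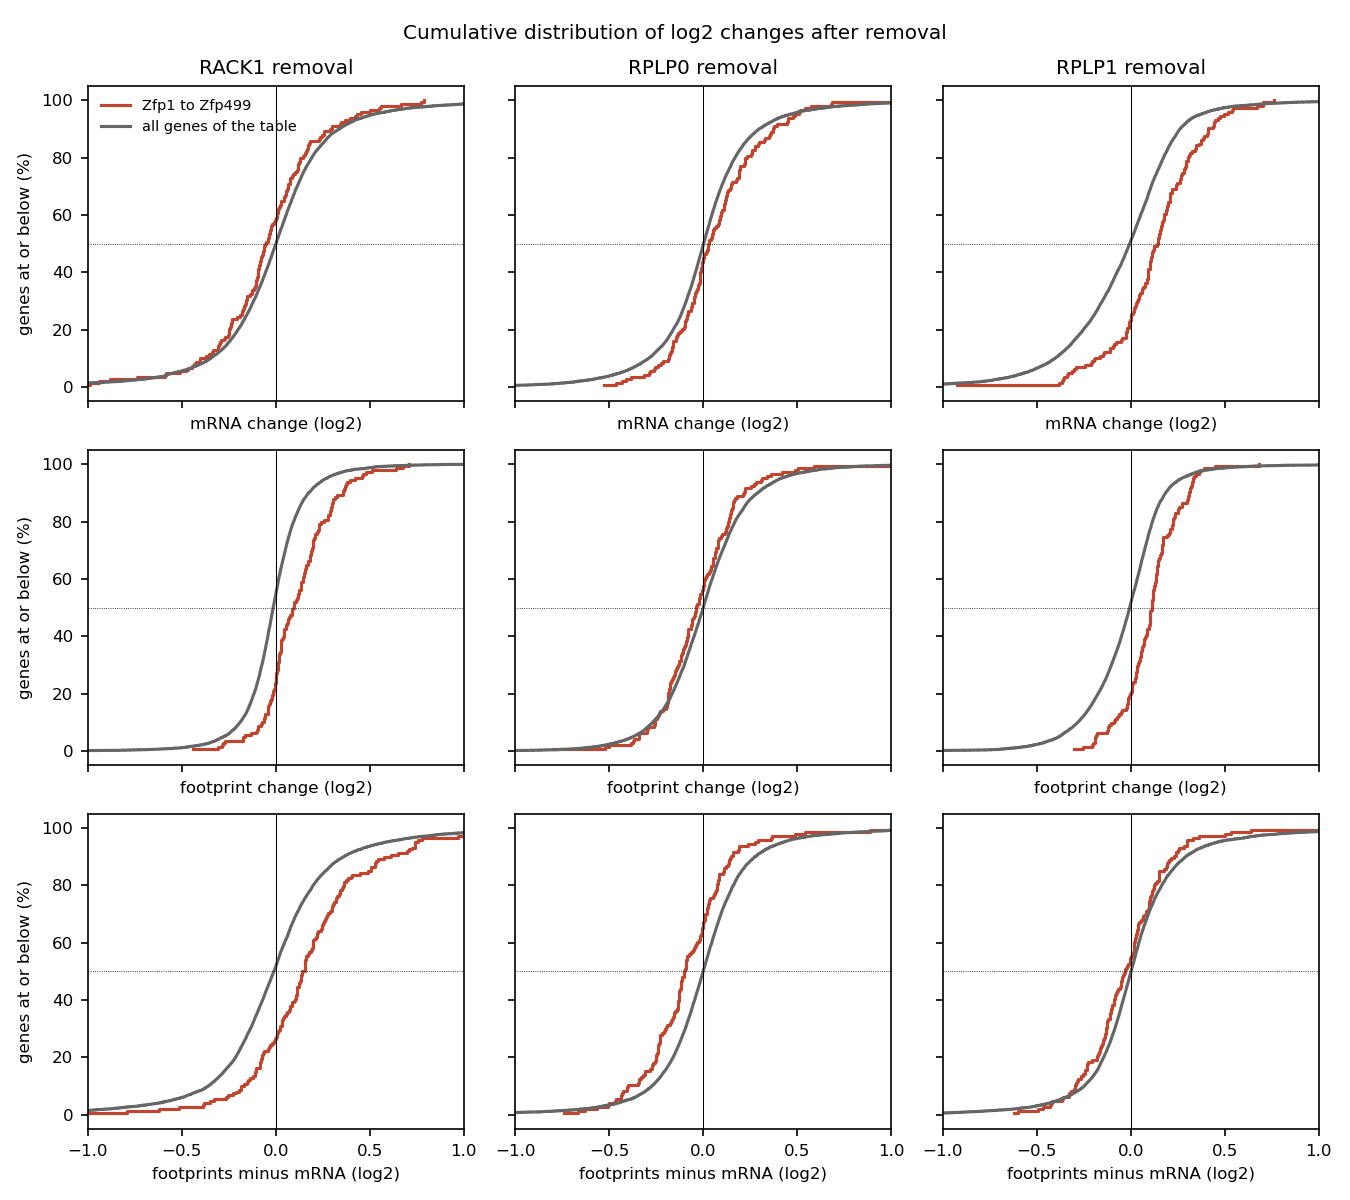
Cumulative share of genes (y axis, percent) by log2 change after IAA against DMSO (x axis), for Zfp1 to Zfp499 and for all genes of the table. Columns are lines, and rows are mRNA, footprints and footprints minus mRNA; the dotted line marks the median. The curve of Zfp1 to Zfp499 lies right of that of all genes for mRNA and footprints in RPLP1 cells (medians 0.14 and 0.11) and for footprints in RACK1 cells (median 0.09).

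RPLP1 removal gave the most calls. At an FDR under 0.05, 18 of 146 members (12.3%) rose in mRNA and 4 (2.74%) fell, where 5.64% of all genes rose and 8.59% fell. In footprints 13 members (8.90%) rose and 0 fell, where 3.54% of all genes rose and 4.85% fell. At an unadjusted p under 0.05, 39 members (26.7%) were higher in footprints and 3 (2.05%) lower, against 11.95% and 14.07% of all genes. Of the 29 members called in either assay, Zfp59, Zfp229, Zfp263, Zfp281, Zfp397 and Zfp459 rose in both.

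Zfp281, a factor of the pluripotency network that restrains Nanog, rose by 0.29 (FDR 0.0026) in mRNA and 0.21 (FDR 0.0172) in footprints in the authors' deposited table for RPLP1. Zfp263, a regulator of heparan sulphate genes in human cells, rose by 0.33 (FDR 0.0199) and 0.22 (FDR 0.0343) in the authors' deposited table. Zfp57, the KRAB protein that keeps DNA methylation at imprinted loci, rose in footprints by 0.17 (FDR 0.0276), with an mRNA change of 0.10 (FDR 0.246), per the authors' deposited table. Its partner at imprinted loci, Zfp445, rose in mRNA by 0.24 (FDR 0.0202), and the authors' deposited table puts its footprint change at 0.12 (FDR 0.170). For each of these members the 2 assays had the same sign, and no test separated footprints from mRNA.

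Among the other members that passed the test, the largest mRNA rise was that of Zfp456, at 0.70 (FDR 0.021) with a footprint change of 0.68 (FDR 0.282) per the authors' deposited table. The authors' deposited table gives Zfp345 an mRNA rise of 0.54 (FDR 0.00489) and a footprint change of 0.37 (FDR 0.214). Zfp459 rose by 0.52 (FDR 0.000223) in mRNA and by 0.22 (FDR 0.0238) in footprints, and Zfp59 by 0.45 (FDR 0.000965) and 0.27 (FDR 0.0161), in the authors' deposited table. For Zfp62 it gives an mRNA rise of 0.47 (FDR 0.00231) and a footprint change of 0.23 (FDR 0.0567), again from the authors' deposited table. Further mRNA rises in the authors' deposited table were 0.41 for Zfp365, 0.39 for Zfp111 and for Zfp7, 0.36 for Zfp35, 0.35 for Zfp141 and for Zfp397, and 0.34 for Zfp97. Smaller rises in the authors' deposited table were 0.29 for Zfp229 and for Zfp24, a factor needed for myelination, and 0.26 for Zfp148, which binds GC-rich promoters. No source used here says how the authors counted reads that fit several related genes, so single values of clustered members are uncertain.

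Footprints of 7 members rose without a call in mRNA, and no test separated footprints from mRNA in any of them. Besides Zfp57, the authors' deposited table gives Zfp101 a footprint rise of 0.31 (FDR 0.0365) beside 0.02 in mRNA, and Zfp26 a rise of 0.22 (FDR 0.0242) beside 0.03. The footprint rises of Zfp60, Zfp131, Zfp317 and Zfp292 were 0.30, 0.27, 0.24 and 0.14 in the authors' deposited table, beside mRNA changes of 0.20, 0.19, 0.22 and 0.10. Zfp131 is a BTB-domain zinc finger protein.

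The 4 members that fell in mRNA after RPLP1 removal were Zfp296, Zfp423, Zfp428 and Zfp219. Zfp296, which takes part in reprogramming with Oct4 and Klf4, fell by 0.36 (FDR 0.0309) in mRNA, with a footprint change of 0.01 (FDR 0.971), per the authors' deposited table. Zfp423, a partner of Smad and Ebf factors that commits cells to the fat lineage, fell by 0.35 (FDR 0.0102), with a footprint change of -0.20 (FDR 0.106), per the authors' deposited table. Zfp428 fell by 0.33 (FDR 0.00419) and Zfp219, a cofactor of Sox9 in cartilage, by 0.21 (FDR 0.0415) in the authors' deposited table, with footprint changes of -0.10 and -0.02.

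**Figure D2:**
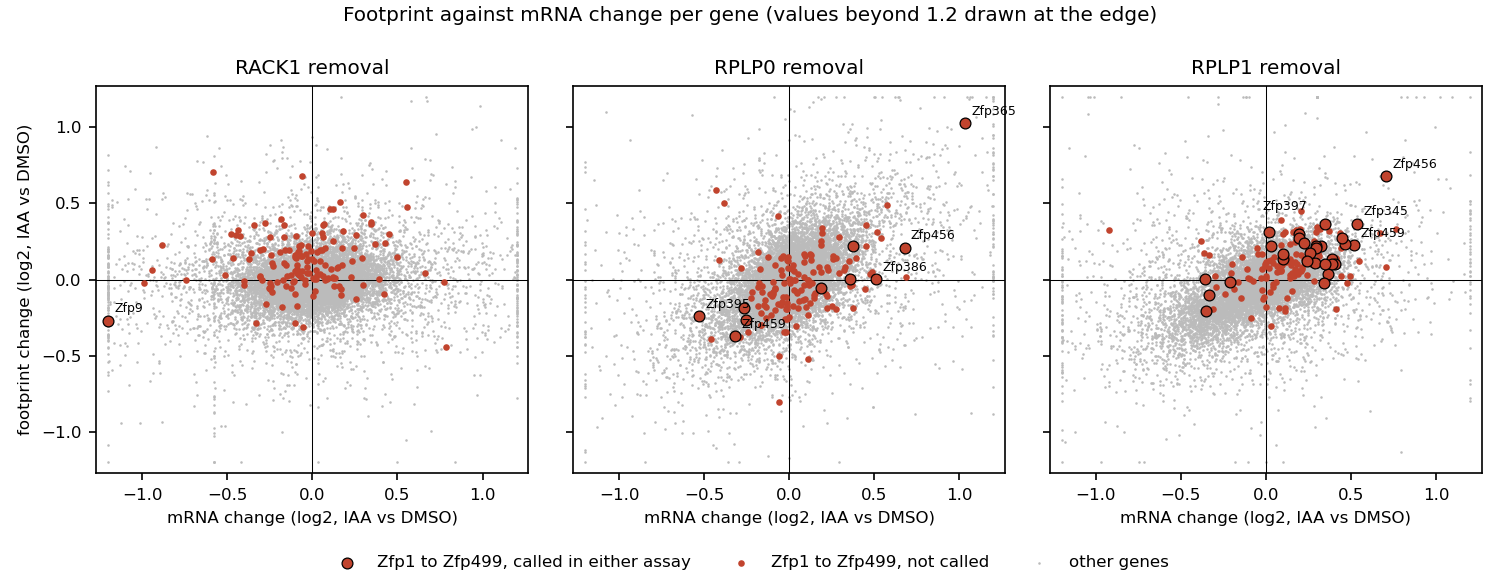
Footprint change (y axis) against mRNA change (x axis) per gene, both log2 of IAA against DMSO, 1 panel per line; large outlined points are members called in either assay, small points other members, grey points other genes. Called members number 1 in RACK1, 10 in RPLP0 and 29 in RPLP1 cells, and in the RPLP1 panel most lie above 0 on both axes.

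RPLP0 removal gave few calls, at rates close to those of all genes. In mRNA 6 of 144 members (4.17%) rose and 4 (2.78%) fell, where 5.05% of all genes rose and 4.90% fell. In footprints 1 member rose and 0 fell, where 1.42% of all genes rose and 1.04% fell. At an unadjusted p under 0.05, 6 members (4.17%) were higher and 14 (9.72%) lower in footprints, against 10.3% and 10.4% of all genes.

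Zfp365, whose human counterpart is a p53 target involved in genome stability, was the one member called in both assays. Its mRNA rose by 1.04 (FDR 2.94e-12) and its footprints by 1.03 (FDR 0.00231) after RPLP0 removal in the authors' deposited table. The authors' deposited table gives it an mRNA change of 0.41 (FDR 0.00915) after RPLP1 removal and 0.01 (FDR 0.990) after RACK1 removal. From high to low its mRNA changes ran RPLP0, RPLP1, RACK1. The gap between RPLP1 and RPLP0, -0.63 (SE 0.17), and that between RPLP0 and RACK1, 1.02 (SE 0.23), both passed the test between lines, and that between RPLP1 and RACK1, 0.39 (SE 0.22), did not.

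Zfp335, a subunit of complexes with histone methyltransferases that activate transcription, rose by 0.37 (FDR 0.00329) in mRNA after RPLP0 removal, with a footprint change of 0.22 (FDR 0.213), per the authors' deposited table. Zfp456, Zfp386, Zfp35 and Zfp445 rose in mRNA by 0.68, 0.51, 0.36 and 0.19 in the authors' deposited table, with footprint changes of 0.21, 0.00, 0.01 and -0.06. Zfp395 fell most, by 0.53 (FDR 0.00173) in mRNA with a footprint change of -0.24 (FDR 0.233), per the authors' deposited table. Zfp318, which permits the membrane form of IgD in B cells, fell by 0.26 (FDR 0.0209), with a footprint change of -0.19 (FDR 0.193), per the authors' deposited table. Zfp459 fell by 0.32 (FDR 0.0207) and Zfp229 by 0.25 (FDR 0.0169) in mRNA, with footprint changes of -0.37 (FDR 0.0911) and -0.26 (FDR 0.276), in the authors' deposited table. Zfp459 and Zfp229 thus had mRNA calls in opposite directions after RPLP0 and RPLP1 removal.

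RACK1 removal gave 1 call among the 148 members. Zfp9 fell by 1.65 (FDR 0.0114) in mRNA, with a footprint change of -0.27 (FDR 0.859), per the authors' deposited table, and it was analysed in no other line. No member rose in mRNA and none changed in footprints, where in mRNA 0.170% of all genes rose and 0.310% fell, and in footprints 0.0232% rose and 0.00775% fell. At an unadjusted p under 0.05, 29 members (19.6%) were higher in footprints and 1 (0.676%) lower, where 3.94% of all genes were higher and 4.35% lower. In mRNA 4 members (2.70%) were higher and 13 (8.78%) lower at that p, against 4.98% and 5.83% of all genes. The tests behind these FDRs are the authors', and no source used here says how footprint FDRs were made from a sample that joins replicates.

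Over the 3 lines 34 of the 149 members (22.8%) were called in at least 1 line and assay, against 24.1% of all genes, and 115 in none. The quartiles of the members' mRNA changes were -0.18 and 0.10 in RACK1 cells, -0.08 and 0.19 in RPLP0 cells, and 0.00 and 0.28 in RPLP1 cells. Of the members 6 (4.03%) were called in 2 lines or more, against 3.03% of all genes, and 0 in all 3, against 0.0679%. Zfp35, Zfp365, Zfp445 and Zfp456 rose in mRNA after removal of either stalk protein, and Zfp229 and Zfp459 fell after RPLP0 and rose after RPLP1 removal.

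Translation efficiency was taken as the footprint change minus the mRNA change, tested against the standard errors that the authors' FDRs imply, with adjustment over the whole table. It passed the test in 0 members in each line, where 0.0697%, 0.00810% and 0.0326% of all genes passed in RACK1, RPLP0 and RPLP1 cells. By this approximate normal test, 18, 9 and 13 members (12.2%, 6.25% and 8.90%) had an unadjusted p under 0.05, against 7.75%, 6.32% and 7.11% of all genes. Where the errors of mRNA and footprints were given a correlation of 0.5, 10 of 148 members passed in RACK1 cells, all higher. In RPLP0 cells 2 of 144 passed and in RPLP1 cells 3 of 146. Of all genes 402 of 12905, 225 of 12353 and 443 of 12274 passed in RACK1, RPLP0 and RPLP1 cells, and their directions were not counted. The median member had a change in efficiency of 0.14 in RACK1 cells, against -0.01 for all genes, and 109 of 148 members (73.6%) were above 0, against 48.2%. In RPLP0 cells the median was -0.10, against 0.00, and 32.6% were above 0, against 49.8%. Among the 32 members with both errors at or below the table's median the RPLP0 median was -0.015, and among the 39 such members in RACK1 cells it was 0.11. In RPLP1 cells the median was -0.03, against 0.00, and it was -0.0015 among 36 such members. Where the p-value behind an FDR was above 0.8, the error was set no smaller than the table's median. These sets can hold such members, whose changes lie near 0, so their medians do not rest on precise values alone.

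In RACK1 cells the highest ratios of efficiency change to error belonged to Zfp60 (0.71, SE 0.19), Zfp445 (0.50, SE 0.14), Zfp35 (0.70, SE 0.19), Zfp229 (0.49, SE 0.16) and Zfp101 (0.74, SE 0.24). In the authors' deposited table each of these 5 members had a negative mRNA change, between -0.45 and -0.29, and a positive footprint change, between 0.13 and 0.36. The ranking itself selects for such signs, because efficiency is the footprint change minus the mRNA change. The lowest ratios were those of Zfp423 (-0.39, SE 0.17), Zfp358 (-0.79, SE 0.39) and Zfp428 (-0.27, SE 0.14). In RPLP0 cells Zfp30 (1.02, SE 0.43), Zfp362 (0.89, SE 0.39) and Zfp180 (0.49, SE 0.24) had the highest ratios, and Zfp445 (-0.24, SE 0.098), Zfp386 (-0.51, SE 0.22) and Zfp13 (-0.41, SE 0.18) the lowest. In RPLP1 cells the highest were Zfp36 (0.50, SE 0.20), Zfp296 (0.37, SE 0.15) and Zfp78 (1.25, SE 0.54), and the lowest Zfp459 (-0.30, SE 0.13), Zfp7 (-0.25, SE 0.11) and Zfp324 (-0.60, SE 0.27). None of these values passed the test. Any mRNA error enters the efficiency change with the opposite sign.

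The same members were followed across the 144 that all 3 tables held. Footprints were above 0 in both RACK1 and RPLP1 cells for 93 members (64.6%), where 25.9% of all 11855 shared genes had that pattern, and below 0 in both for 12 (8.33%), where 32.3% did. The mRNA was below 0 in RACK1 cells and above 0 in RPLP1 cells for 71 members (49.3%), against 27.6% of all genes, and the opposite held for 22 (15.3%), against 28.5%. Efficiency was above 0 in RACK1 cells and below 0 in RPLP0 cells for 75 members (52.1%), against 26.0%, and the opposite held for 16 (11.1%), against 27.8%. Each pattern joins shifts of the members in single lines, and agreement of single members beyond those shifts was not tested. The lines have separate DMSO samples. The rank correlation of the members' mRNA and footprint changes was 0.097 in RACK1, 0.412 in RPLP0 and 0.409 in RPLP1 cells, against 0.121, 0.467 and 0.511 over all genes, as a description across genes that are not independent.

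Differences between lines were tested gene by gene from the same errors, in 9 comparisons of 2 lines and 3 measures. RPLP1 and RPLP0 cells differed in mRNA for 13 members (9.03%), 11 of them (7.64% of members) higher and 2 (1.39%) lower in RPLP1 cells. Of all genes 11.6% differed, 4.60% higher and 7.01% lower in RPLP1 cells. They differed in footprints for 4 members, all higher in RPLP1 cells (2.78%), where 4.59% of all genes differed, 1.55% higher and 3.04% lower. RPLP1 and RACK1 cells differed in mRNA for 14 members (9.66%), 11 of them (7.59% of members) higher and 3 (2.07%) lower in RPLP1 cells. Of all genes 7.77% differed, 2.98% higher and 4.79% lower. In footprints this pair differed for 0 members, where 0.107% of all genes differed, and for 11 (7.59%) at an unadjusted p under 0.05 by the approximate normal test, against 10.2% of all genes. RPLP0 and RACK1 cells differed in mRNA for 4 members (2.78%), all higher in RPLP0 cells, where 3.13% of all genes differed, 1.79% higher. In footprints this pair differed for 2 members (1.39%), 1 higher and 1 lower in RPLP0 cells. Of all genes 0.599% differed in footprints, 0.457% higher and 0.141% lower. Efficiency differed for 0 members between RPLP1 and RPLP0 cells, and for 4 (2.78%) at an unadjusted p under 0.05 by the same test, against 4.69% of all genes. It differed for 1 member (0.690%) between RPLP1 and RACK1 cells and for 1 (0.694%) between RPLP0 and RACK1 cells. Of all genes 0.00836%, 0.322% and 0.0665% differed in efficiency in these pairs, in that order. The shares of members that differed in mRNA were thus near those of all genes. No test was made of the split by direction.

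Zfp459 had the mRNA difference between the stalk proteins that was largest against its error. Its mRNA change was 0.84 higher (SE 0.15) and its footprint change 0.59 higher (SE 0.15) in RPLP1 than in RPLP0 cells, and its mRNA change was 0.63 higher (SE 0.19) in RPLP1 than in RACK1 cells. Zfp229 was 0.55 higher (SE 0.12) in mRNA in RPLP1 than in RPLP0 cells, and 0.59 higher (SE 0.16) than in RACK1 cells. Zfp59 and Zfp7 likewise differed in mRNA in both comparisons, by 0.51 (SE 0.13) and 0.44 (SE 0.12) against RPLP0 cells and by 0.68 (SE 0.19) and 0.55 (SE 0.15) against RACK1 cells. In each of these 4 members RPLP1 removal gave the highest mRNA change of the 3 lines.

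Zfp445 and Zfp35 set RACK1 cells apart from both stalk lines. The authors' deposited table gives Zfp445 an mRNA change of -0.37 (FDR 0.141) and a footprint change of 0.13 (FDR 0.604) after RACK1 removal. Its mRNA change was 0.62 higher (SE 0.14) in RPLP1 and 0.56 higher (SE 0.14) in RPLP0 than in RACK1 cells, and its efficiency change was -0.75 (SE 0.17) in RPLP0 less RACK1 cells. Zfp35 was 0.70 higher in mRNA in RPLP1 cells (SE 0.20) and in RPLP0 cells (SE 0.18) than in RACK1 cells, with an efficiency difference of -1.03 (SE 0.25) for RPLP1 less RACK1 cells. Zfp296, Zfp423 and Zfp428 went the other way, with mRNA changes lower in RPLP1 than in RACK1 cells by differences of -0.73 (SE 0.21), -0.61 (SE 0.19) and -0.50 (SE 0.15). Zfp472 passed in footprints and in no other measure, by 0.49 (SE 0.14) for RPLP1 less RPLP0 cells and by -0.69 (SE 0.15) for RPLP0 less RACK1 cells.

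**Figure D3:**
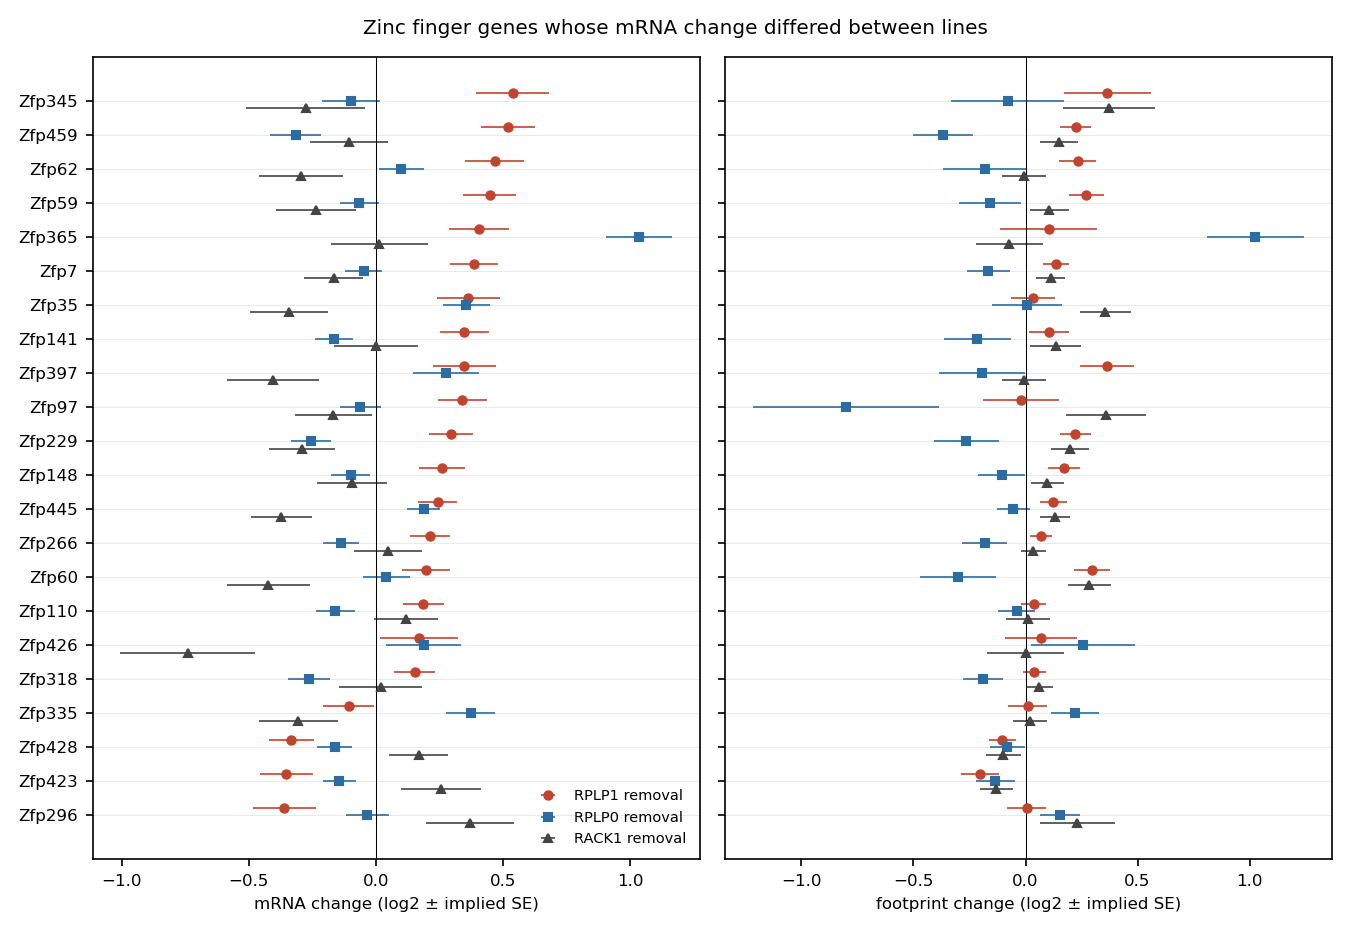
Log2 changes (x axis, IAA against DMSO, with bars of 1 implied standard error) of the members whose mRNA change differed between at least 2 lines, ordered by the mRNA change in RPLP1 cells, for mRNA and footprints in RPLP1, RPLP0 and RACK1 cells. Zfp459 and Zfp229 have the mRNA changes of RPLP1 cells above 0 and those of RPLP0 cells below 0, and Zfp365 has its highest values in RPLP0 cells.

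Members with a known role were read whatever their values. Zfp36 (tristetraprolin), which binds AU-rich elements and hastens mRNA decay, had an mRNA change of 0.55 (FDR 0.480) and a footprint change of 0.64 (FDR 0.198) in RACK1 cells in the authors' deposited table, and of -0.34 (FDR 0.142) and 0.16 (FDR 0.396) in RPLP1 cells. Zfp143, part of whose site was searched above, had footprint changes of 0.05, -0.26 (FDR 0.101) and 0.06 in RACK1, RPLP0 and RPLP1 cells in the authors' deposited table, and no call. Zfp207, a spindle assembly factor that binds Bub3, had changes between -0.07 and 0.16 over both assays and the 3 lines in the authors' deposited table. Zfp326 and Zfp451, a subunit of a complex that links splicing to elongation and a SUMO ligase, had footprint changes of -0.30 (FDR 0.186) and 0.34 (FDR 0.0815) in RPLP0 cells in the authors' deposited table. Zfp106, an RNA-binding protein needed by motor neurons, Zfp91, a ubiquitin ligase, Zfp330, a nucleolar protein, Zfp346, which binds double-stranded RNA, and Zfp473, which acts in histone mRNA processing, passed no test. Nor did Zfp217, a partner of corepressors, Zfp277, Zfp384, Zfp407, Zfp410, which activates Chd4, or Zfp462, which acts in stem cell heterochromatin.

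**Figure D4:**
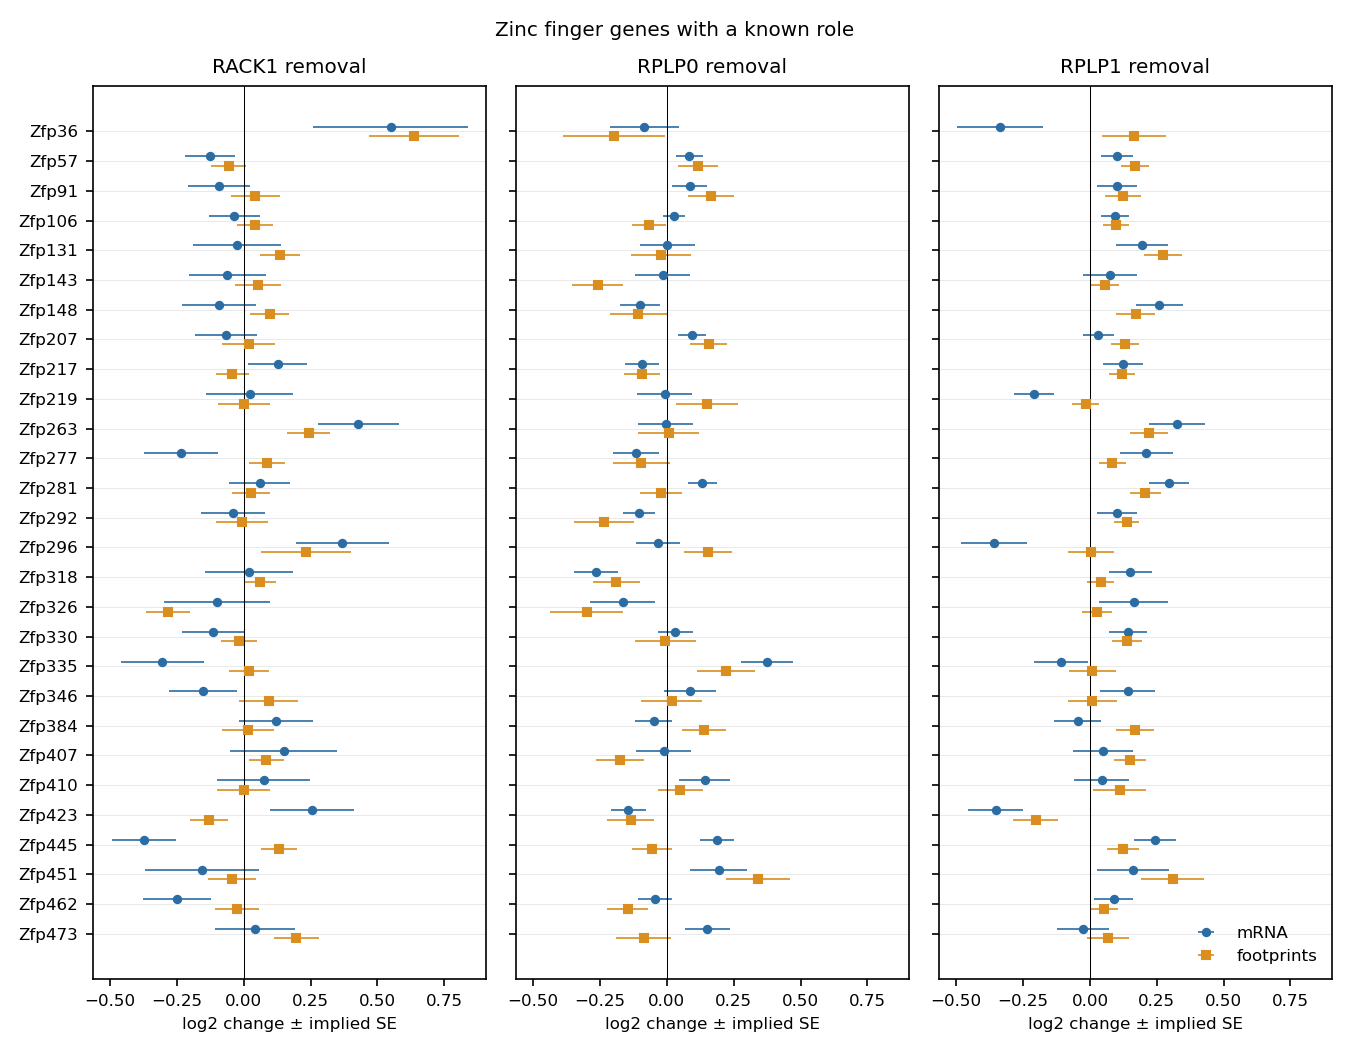
Log2 changes after IAA against DMSO for the 28 members with a known role, in mRNA (circles) and footprints (squares) of each line, with bars of 1 implied standard error. In RPLP1 cells most points lie right of 0, among them Zfp281 at 0.29 in mRNA and Zfp57 at 0.17 in footprints.

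The partners of KRAB proteins were read from a list of 31 gene symbols. It held corepressor and heterochromatin genes, and also the zinc finger genes Zfp809 and Zfp932. In RPLP1 cells the footprints of Zfp809 rose by 0.26 (FDR 0.0445) in the authors' deposited table. Of 30 measured in RPLP1 cells, mRNA rose for 6 and fell for 1, and footprints rose for 6 and fell for none, with medians of 0.10 and 0.06. Over all genes 5.64% rose and 8.59% fell in mRNA there, and 3.54% and 4.85% in footprints. Fam208a, a subunit of the HUSH silencing complex, rose by 0.26 in mRNA and 0.22 in footprints, and Atrx, a chromatin remodeller, by 0.23 and 0.20, in the authors' deposited table for RPLP1. Of 29 measured in RPLP0 cells, 0 rose and 6 fell in mRNA, where 5.05% and 4.90% of all genes did, among them Dnmt1, the maintenance DNA methyltransferase, by 0.21, and its recruiter Uhrf1 by 0.26, in the authors' deposited table. Mphosph8, also of HUSH, fell by 0.29 in mRNA and 0.46 in footprints after RPLP0 removal, and its mRNA rose by 0.26 after RPLP1 removal, in the authors' deposited tables. Of 29 measured in RACK1 cells, Cbx5, a heterochromatin protein, fell by 0.41 (FDR 0.0290) in mRNA in the authors' deposited table, and 0 passed in footprints. Trim28 and Setdb1 had no mRNA or footprint call in any line.

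Position beside other zinc finger genes was read from the order of genes in RefSeq. A member counted as beside a zinc finger gene if the next protein-coding gene on either side had a Zfp, Zscan or Zkscan symbol. Zinc finger genes with other symbols were not counted, so the other members may also lie in clusters. In RPLP1 cells the 78 members beside another zinc finger gene had a median mRNA change of 0.18, with 13 called higher and 0 lower, and the 68 others had 0.10, with 5 higher and 4 lower, where 5.64% of all genes rose and 8.59% fell. In footprints these medians were 0.12 and 0.10, with 7 and 6 called higher, where 3.54% of all genes rose. In RACK1 cells the medians of efficiency change were 0.20 for 80 members beside another zinc finger gene and 0.11 for 68 others. In RPLP0 cells they were -0.14 for 77 and -0.02 for 67. Members beside a zinc finger gene also had the larger median mRNA errors, 0.154 against 0.120 in RPLP1 cells and 0.246 against 0.176 in RACK1 cells, and the part of these errors in the medians was not tested.

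The promoter windows were also read for other letters. CCGGAAG, an Ets core, was held on either strand by 25.2% of the members' windows, against 16.5% of windows of genes in the tables and 11.6% of all windows. CCATNTT, a Yy1 core, was held by 19.9%, against 14.2% and 15.1%, and GGGCGG, an Sp and Klf box, by 43.0%, against 63.0% and 46.2%. The median window had 55.3% G and C and 16 CpG in members, against 61.0% and 20 in genes of the tables and 56.3% and 13 in all windows. The 14 members with ACTACAA had median mRNA changes of -0.05, -0.05 and 0.13 and median footprint changes of 0.10, 0.03 and 0.11 in RACK1, RPLP0 and RPLP1 cells. Of them Zfp111 and Zfp229 rose and Zfp219 fell in mRNA after RPLP1 removal, and Zfp229 fell after RPLP0 removal. In RPLP1 cells these medians lie next to those of all members.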

How the data were processed

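In each line mRNA and ribosome footprints were sequenced after IAA and after DMSO. The deposited tables hold, per the file headers, the authors' log2 fold changes of mRNA and footprints per transcript, an FDR (an adjusted p-value) for each, and a class code, a number whose key stands in the RACK1 and RPLP1 tables. No label or header records the aligner, counting, test, filter on low counts or genome build. No value per sample was used, so depth is unknown and errors cover only what the authors' FDRs measure.

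Members and lists were chosen with earlier results of these data known. Calls use the authors' FDR under 0.05. Inverting the Benjamini-Hochberg adjustment gave the p-value behind each FDR, and the standard error is the log2 change over the matching normal quantile. Where that p-value was above 0.8, the error was taken as at least the median error of the table. Efficiency and line differences were tested against combined errors with a normal approximation and Benjamini-Hochberg adjustment over the whole table. The efficiency test was tried on simulated data whose errors were normal and independent. That trial cannot show how the method does with correlated errors or with the authors' own test. The plan for count tests could not be used. Genes were named if called in a line or assay (up to 10 per direction), called more than once, different between lines, leading in efficiency, or on a list of 28 members with known roles; partners were named from a fixed list. Alternatives were other FDR thresholds, the class code, shared genes, genes with errors at or below the table's median, centring and an error correlation. Promoter sequences and names come from RefSeq, where all 149 members matched. Python 3.11.15, numpy 2.4.6, pandas 2.3.3, scipy 1.17.1 and matplotlib 3.10.9 were used.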

Additional observations from a re-analysis of the deposited data

Results flagged for a closer look

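Line differences that passed the test of the difference itself, after adjustment over all genes shared by both tables, numbered 39 in 24 members. All are differences of log2 changes between lines with separate DMSO samples, and 11 members had 2 or more. With RPLP0 subtracted from RPLP1, the mRNA differences were 0.84 for Zfp459, 0.55 for Zfp229, 0.51 for Zfp141, 0.51 for Zfp59, 0.44 for Zfp7, 0.42 for Zfp318, -0.63 for Zfp365, -0.48 for Zfp335, 0.63 for Zfp345, 0.35 for Zfp266, 0.40 for Zfp97, 0.35 for Zfp110 and 0.36 for Zfp148. The footprint differences of this pair were 0.59 for Zfp459, 0.49 for Zfp472, 0.60 for Zfp60 and 0.37 for Zfp292.

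With RACK1 subtracted from RPLP1, the mRNA differences were 0.62 for Zfp445, 0.76 for Zfp62, 0.59 for Zfp229, 0.55 for Zfp7, 0.68 for Zfp59, 0.70 for Zfp35, -0.50 for Zfp428, -0.73 for Zfp296, 0.75 for Zfp397, 0.63 for Zfp459, 0.62 for Zfp60, -0.61 for Zfp423, 0.91 for Zfp426 and 0.81 for Zfp345. The efficiency difference of Zfp35 was -1.03. With RACK1 subtracted from RPLP0, the mRNA differences were 1.02 for Zfp365, 0.56 for Zfp445, 0.70 for Zfp35 and 0.68 for Zfp335. The footprint differences were -0.69 for Zfp472 and 1.10 for Zfp365, and the efficiency difference of Zfp445 was -0.75. Zfp445, Zfp459, Zfp35 and Zfp365 appear 3 times or more in these comparisons.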

How the results depend on the processing

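Medians moved by under 0.05 with shared genes, with centring, without runs of tied changes and without Zfp36, Zfp106 and Zfp451 (chosen after seeing the data). Among members with errors at or below the table's median, some of them set at that median, 8 of 9 did. The RPLP0 medians were then -0.015 in efficiency and, with its sign turned, -0.01 in mRNA. At an FDR under 0.1, RACK1 footprints gave 1 higher, RPLP0 mRNA 12 higher, RPLP0 footprints 2 higher and 1 lower, and RPLP1 footprints 26 higher. Line differences then numbered 11 in RPLP1 less RPLP0 footprints, 6 in RPLP0 less RACK1 footprints, and 2 and 3 in efficiency of RPLP1 and RPLP0 less RACK1. At an FDR under 0.01, RACK1 mRNA gave 0 lower, RPLP0 mRNA 1 lower, and RPLP1 9 higher and 1 lower in mRNA and 0 higher in footprints. The authors' class code, whose FDR limits are looser, gave 1 higher and 3 lower in RACK1 mRNA, 4 and 1 in RACK1 footprints, 14 and 9 in RPLP0 mRNA, 2 and 1 in RPLP0 footprints, 40 and 8 in RPLP1 mRNA, and 26 higher in RPLP1 footprints. In either direction the class code took in 286 and 81 of all 12905 genes in RACK1 mRNA and footprints. It took in 2738 and 860 of 12353 in RPLP0 cells, and 3956 and 1840 of 12274 in RPLP1 cells. Members taken in numbered 23 of 144 in RPLP0 mRNA and 48 of 146 in RPLP1 mRNA. The split of all genes by direction, and their shares at FDR limits of 0.1 and 0.01, were not taken. An error correlation of 0.5 gave 10, 2 and 3 members in efficiency in RACK1, RPLP0 and RPLP1 cells, where 402, 225 and 443 of all genes passed. Centring gave 2 in efficiency of RPLP1 less RACK1. The comparison of efficiency between lines was added after seeing the data. No paired analysis was possible because the tables hold no value per sample, so replicates were not left out either. A finger motif in the proteins was not searched, as no protein table was used here.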
